A study of Mus musculus with 18 samples.

Results

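RNA abundance was compared between day 4 (DIV4) and day 2 (DIV2) of differentiation in 3 Thap1 null clones, 3F, D6 and 7F. Each clone gave 1 library at each day, so 6 of the 18 libraries of the series carry the comparison. These 6 libraries were chosen by genotype and stage alone, and each DIV4 library was set against the DIV2 library of the same clone. The cells were clonal lines of oligodendrocyte progenitor cells (OPCs) derived from primary mouse neural stem cells. OPCs divide under the growth factor PDGF-AA, and the lines were moved to differentiation medium with the thyroid hormone T3 at 40 µg/ml for both DIV2 and DIV4. The control clones D7, D3 and E8, sampled at the same days in the same medium, gave the 6 libraries used as the reference. The null and control OPC libraries, taken at day 0 in growth medium with PDGF-AA, entered the scaling and are shown as levels, but no test. How the null allele was made, and the age and strain of the source animals, are not given in the sources used here.

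Thap1 encodes a zinc finger transcription factor, and its loss or mutation is linked to the movement disorder dystonia DYT6. When OPCs stop dividing they pass through a premyelinating stage, then switch on the genes of compact myelin, such as Mbp, Mag and Mog, together with the enzymes that make cholesterol and galactolipids for the myelin membrane. Cholesterol supply limits myelin growth, and the sterol genes and the amino acid genes are each set by transcription factors of their own.

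The deposited values are TPM, a level corrected for transcript length and scaled to the same total in each library. They were summed by gene over protein-coding transcripts, and each library was rescaled by the median of ratios, so levels below are rescaled TPM. Changes are differences of log2(rescaled TPM + 1) between days within a clone, which understate the change of low genes. A gene was called when its limma p-value, adjusted by Benjamini-Hochberg over the 10165 genes with a mean of at least 1, was below 0.05. Clones are the replicates. A p-value sets a change against the spread of changes between clones of the same genotype, estimated jointly over the null and control clones.

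Thap1 was low in the null libraries. At DIV2 it stood at 0.343, 0.639 and 0.686 in clones 3F, D6 and 7F, and at DIV4 at 0.453, 0.752 and 0.196. The 6 control libraries of the same days held 1.93 to 3.79, with no overlap with the null libraries. Gusb, the lysosomal beta-glucuronidase, stood at 0.0479 to 0.329 in the same 6 null libraries and at 2.74 to 6.77 in the 6 control libraries. At these levels the added 1 holds a log2 change near 0, so no change between days is read for either gene.

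The cells carried oligodendrocyte lineage genes at both days. Sox10, a transcription factor that defines the lineage, stood at 73.0, 69.9 and 68.9 at DIV2 and at 73.4, 68.6 and 75.5 at DIV4 in clones 3F, D6 and 7F. Markers of mural and mesenchymal cells summed to 0.795 to 1.11 over 10 genes, and those of endothelial cells to 1.28 to 3.44 over 8 genes, in the 6 null libraries. Of 10 microglia markers only P2ry12 was abundant enough to be tested, and it was not called. One transcript class differed between the days: signal recognition particle RNA took 39.2% to 43.4% of deposited TPM in the null DIV2 libraries and 50.2% to 51.4% in the null DIV4 libraries, while the protein-coding share was 26.1% to 32.1% at DIV2 and 23.9% to 26.5% at DIV4. Its part in the results was not tested. The control DIV4 library of clone D7 stood apart from the other control DIV4 libraries, with 59.1% against 37.6% and 39.4% of such RNA, and it touches every control value below.

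From DIV2 to DIV4, 1719 of 10165 genes (16.9%) were called in the null clones, 766 higher (7.54%) and 953 lower (9.38%). At least 1 log2 unit separated the days for 230 of the higher and 92 of the lower genes. The 3 DIV4 libraries lay wholly above the 3 DIV2 libraries for 19.5% of all genes tested and wholly below for 23.4%. In control clones 290 genes (2.85%) were called, of which 142 were also called in the null clones in the same direction, 8.26% of the null calls and 49.0% of the control calls. The number of calls rested on all 3 null clones: 86 genes were called without clone 3F, 4 without D6 and 2 without 7F. Without the control clone D7, which shares the estimate of the spread, 2896 were called. Without the clone as a replicate block, 535 were called. Scaling the protein-coding TPM of each library to the same total raised the median change of all genes from -0.02 to 0.20, and 83.2% of the 2372 calls were then higher, against 44.6% here. With the deposited TPM as they stand, 68.4% of 544 calls were higher. Changes below are therefore relative to a median gene.

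**Figure D1:**
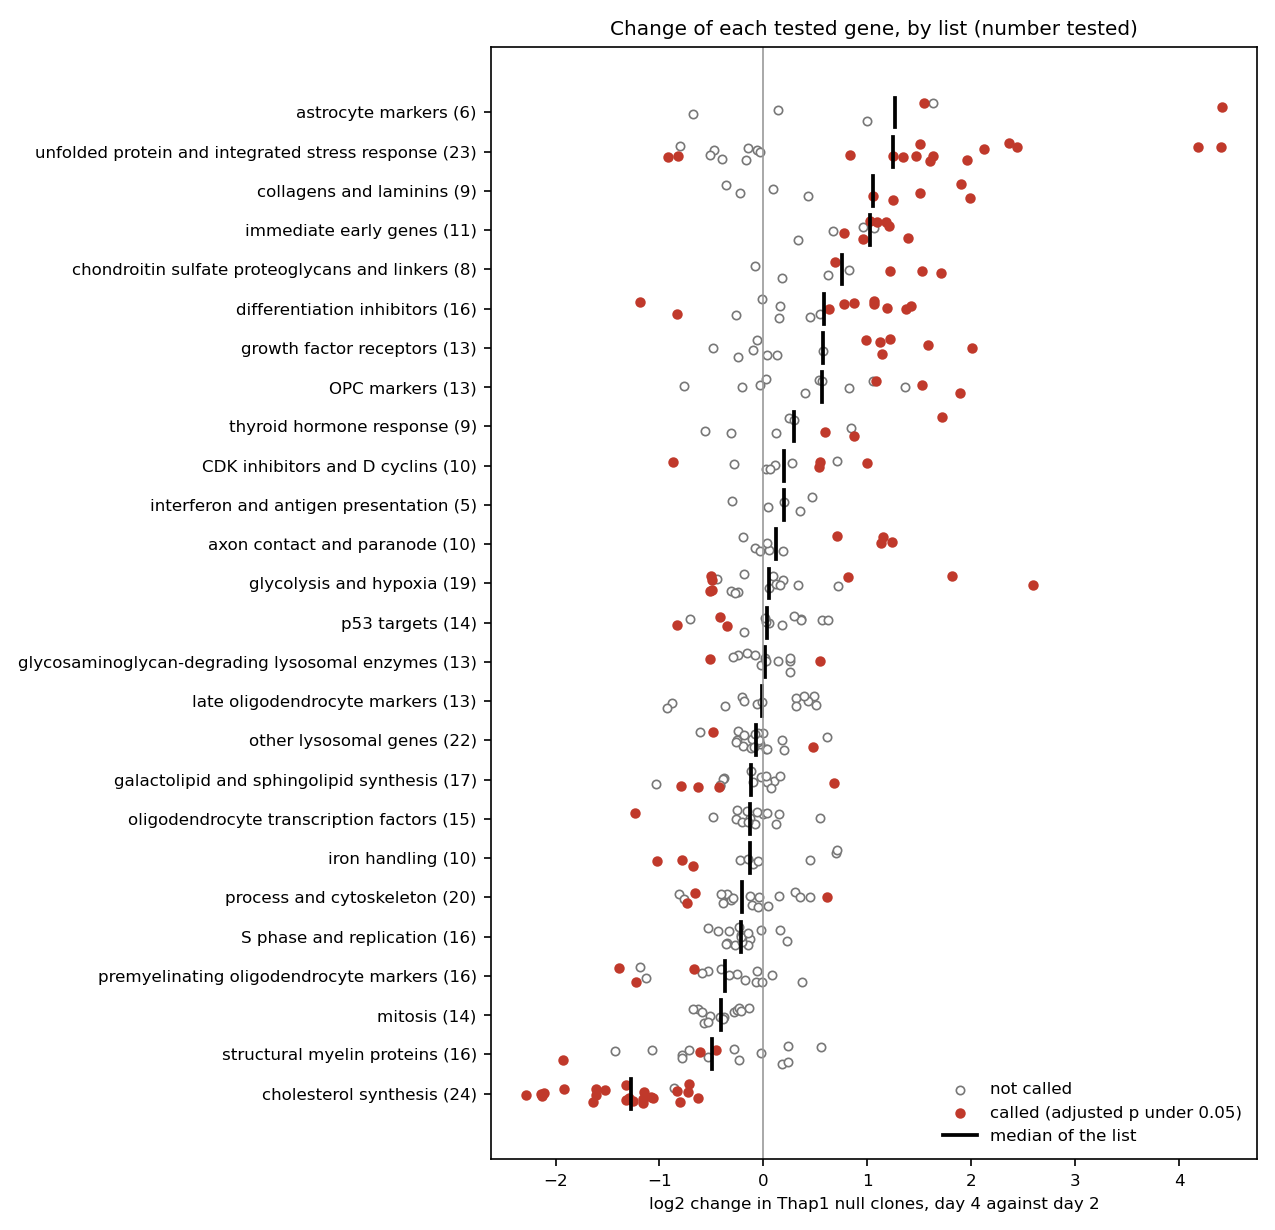
Log2 change from day 2 to day 4 in the Thap1 null clones for each tested gene (1 point), grouped by list and ordered by the list's median (black bar). Filled points passed limma's adjusted p under 0.05; the cholesterol list lies lowest, with 23 of 24 genes called lower, and no structural myelin gene was called higher.

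No structural myelin gene was called higher at DIV4 than at DIV2 in the null clones. Of 18 listed genes 16 were tested, 3 fell (against 9.38% of all genes) and 13 were not called. The median change was -0.49 against -0.02 for all genes. The 3 that fell were Mog, Gjc3 and Omg. With 3F, D6 or 7F left out no myelin gene was called lower, and with D7, D3 or E8 left out 7, 3 and 5 were. A further 9 of the 13 others had point estimates below 0, among them Mbp, Cnp and Mag. The same list had a median change of 0.09 in control clones with no gene called, and no myelin gene was called for a difference between genotypes.

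Mog encodes a glycoprotein of the outermost myelin layer and is switched on late (GRCm38 chromosome 17, bases 37010743 to 37023398, minus strand). It stood at 24.2, 35.4 and 25 at DIV2 and at 4.4, 12 and 5.13 at DIV4 in clones 3F, D6 and 7F. All DIV4 libraries lay below all DIV2 libraries, and clone D6 was the highest at both days. DIV4 levels were 18.2%, 33.8% and 20.5% of the DIV2 level of the same clone. The change was -1.93 (SE 0.31, limma adjusted p = 0.0138). In control clones D7, D3 and E8 Mog stood at 54.9, 8.16 and 39.4 at DIV2 and at 159, 11.9 and 32.6 at DIV4, so it was higher at DIV4 in D7 and D3 and lower in E8. The null change was lower than the control change by 2.51 (95% interval of the difference -3.54 to -1.48, limma adjusted p = 0.117), which was not called.

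Mbp, the basic protein that compacts the cytoplasmic faces of myelin, stood at 397, 788 and 357 at DIV2 and at 84.3, 557 and 120.2 at DIV4. Clone D6 kept 70.6% of its DIV2 level, while 3F kept 21.2% and 7F kept 33.6%, and D6 at DIV4 lay above both other clones at DIV2. Mbp was not called (change -1.43, 95% interval -2.49 to -0.37, limma adjusted p = 0.0698). Cnp, the cyclic nucleotide phosphodiesterase of non-compact myelin, went from 607, 747 and 617 to 323, 458 and 367 (change -0.79, limma adjusted p = 0.101). Mag, a receptor of the innermost myelin layer, held 94.3% of its DIV2 level in D6 and 56.5% and 61.1% in 3F and 7F (change -0.53, 95% interval -1.61 to 0.55).

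Gjc3, a connexin, fell from 251, 254 and 206 to 180, 172 and 165 (change -0.45, SE 0.12, limma adjusted p = 0.0475). Omg, an oligodendrocyte surface glycoprotein, fell from 33.6, 24.3 and 37.6 to 22.2, 19.5 and 19.0 (change -0.61, SE 0.13, limma adjusted p = 0.0258). Both had DIV4 libraries wholly below the DIV2 libraries. Of the 16 tested genes 6 were arranged in that way and 1 in the opposite way, against 23.4% and 19.5% of all genes. That 1 was the tetraspanin Cd9, with 231, 244 and 243 at DIV2 and 402, 344 and 313 at DIV4 (change 0.55, limma adjusted p = 0.0862).

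Cldn11, the tight junction protein of myelin, stood at 1062, 842 and 915 at DIV2 and at 897, 985 and 882 at DIV4 (change -0.02, 95% interval -0.68 to 0.63). Clone D6 was higher at DIV4 and the other clones were lower. Tspan2, a tetraspanin, had a change of -0.23, and the connexin Gjb1 one of -0.28, both with intervals on either side of 0. Opalin, a late membrane glycoprotein, stood at 3.99 to 6.64 at DIV2 and at 1.91 to 3.66 at DIV4 (change -0.79, limma adjusted p = 0.275). Pllp, a membrane proteolipid, went from 44.3, 52.5 and 29.9 to 15.8, 34.9 and 12.3 (change -1.08, limma adjusted p = 0.0637).

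Among late myelin genes clone D6 differed from the other null clones in Mobp and Mal, both at low levels. Mog and Opalin were lower at DIV4 in D6 as in the other clones. Mobp, a late cytoplasmic myelin protein, stood at 0.0573, 0.213 and 0.0726 at DIV2 and at 0.0636, 1.04 and 0.0307 at DIV4 in clones 3F, D6 and 7F. Mal, a raft proteolipid, was also highest in D6 at DIV4, at 2.34 against 0.516 and 0.272. Neither gene was called, at levels where the added 1 holds a log2 change small, and without clone D6 their changes were -0.02 for Mobp and -0.17 for Mal. Ermn and Hapln2 were below the minimum level and were not tested.

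Set against OPCs, Mag, Mbp and Mog were still above the OPC level in the null clones at DIV4, by less than at DIV2. Mean Mag was 62.3 times its null OPC level at DIV2 and 44.1 times at DIV4. For Mbp these ratios were 41.9 and 20.6, and for Mog 160.3 and 40.8. Because the OPC libraries entered no test, these ratios are a description, and in the OPC library of D6 34.8% of TPM fell on mmu-mir-6236, Gm15662 and Gm26924, which held at most 3.17% in the null libraries of later days. In bulk RNA, fewer cells of a type and less RNA per cell cannot be told apart, here and in all results below.

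**Figure D2:**
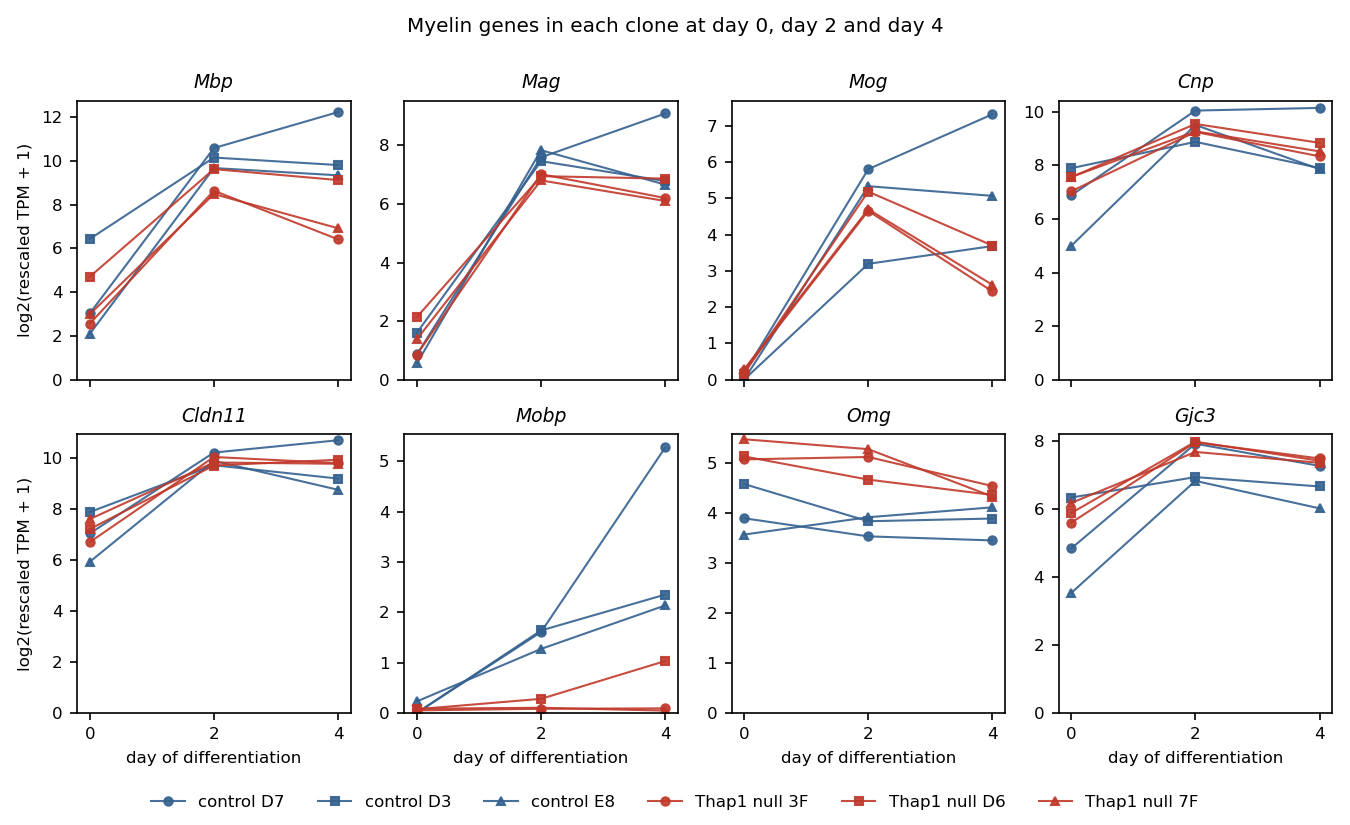
Levels of 8 myelin genes, as log2(rescaled TPM + 1), in each control and Thap1 null clone at day 0, 2 and 4 of differentiation, 1 line per clone. Null Mog drops in all 3 clones after day 2, null Cldn11 stays near its day 2 level, and only clone D6 among null clones lies above 0.5 for Mobp at day 4.

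Of 16 premyelinating markers 3 fell, against 9.38% of all genes, and none rose (median -0.37). Bcas1, a marker of newly formed oligodendrocytes, fell from 514, 491 and 481 to 345, 263 and 335 (change -0.67, limma adjusted p = 0.0317). Rras2, a small GTPase, fell from 23.4, 25.7 and 16.1 to 6.74, 11 and 5.59 (change -1.39, limma adjusted p = 0.0196). Sema5a, a guidance semaphorin, fell by 1.22 on the log2 scale. Enpp6, a choline phosphodiesterase of newly forming cells, went from 64.3, 106 and 68.2 to 24.4, 43.5 and 39.4 and missed the threshold (change -1.13, limma adjusted p = 0.0514). None of the 13 tested late oligodendrocyte markers was called, and their median change was -0.01.

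Of 15 tested transcription factors of the lineage 1 fell, against 9.38% of all genes, and none rose (median change -0.13). That gene was Sirt2, a deacetylase of the myelin sheath that the list holds beside the factors, at 43.9, 62.5 and 45.7 at DIV2 and 19.7, 23.2 and 19.3 at DIV4 (change -1.24, limma adjusted p = 0.0278). Sox10 had a change of 0.04 (95% interval -0.17 to 0.24), Olig2 one of 0.15 (-0.14 to 0.44) and Myrf, the factor that switches on myelin genes, one of -0.13 (-0.84 to 0.59). Myrf stood at 5.49, 5.48 and 4.86 at DIV2 and at 4.34, 5.37 and 4.59 at DIV4.

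Some progenitor genes were higher at DIV4. Of 13 tested OPC markers 3 rose and none fell, against 7.54% higher and 9.38% lower over all genes. DIV4 libraries lay wholly above the DIV2 libraries for 7 and wholly below for 2, against 19.5% and 23.4% of all genes. The median change was 0.56, and 0.82 in control clones. The 2 below were the matrix proteoglycan Vcan and the matrix glycoprotein Tnr, neither called (changes -0.77 and -0.20, limma adjusted p = 0.063 and 0.532). Cspg4, the NG2 proteoglycan, rose from 0.721, 1.40 and 0.738 to 4.4, 5.70 and 3.76 (change 1.53, limma adjusted p = 0.0179). C1ql1, a secreted complement-like protein, rose by a change of 1.89 and Etv5, an Ets factor, by 1.08, though Etv5 shares 30.3% of its 31-base words with other genes and is uncertain. Pdgfra, the PDGF-AA receptor, went from 3.43, 7.07 and 4.52 to 7.35, 18.9 and 9.64 and was not called (change 1.06, limma adjusted p = 0.165). These levels remained far under the null OPC level of Pdgfra, 72.3 to 102.

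Among known inhibitors of oligodendrocyte differentiation more rose than fell. Of 16 tested, 8 rose and 2 fell, against 7.54% higher and 9.38% lower over all genes. The median change was 0.59, and 0.34 in control clones. The rises were Id2, Id3 and Id4, which sequester bHLH factors, Notch1 and its ligand Jag1, the surface receptor Lingo1, and Axin2 and Daam2 of the Wnt pathway. Id3 stood at 6.78, 9.11 and 12.4 at DIV2 and at 28.3, 20.5 and 28.1 at DIV4 (change 1.38, limma adjusted p = 0.0232). Notch1 stood at 3.43, 3.31 and 3.45 at DIV2 and at 8.27, 9.16 and 9.74 at DIV4 (change 1.19, limma adjusted p = 0.0199). For both genes every DIV4 library lay above every DIV2 library. Bmp4, a ligand that blocks the lineage, and Sox11, a progenitor factor, fell by 1.19 and 0.83 on the log2 scale. No gene of these 5 lists was called for a difference between null and control clones.

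Cholesterol synthesis was the group with the most uniform fall. Of 24 listed genes, all tested, 23 fell and none rose, against 9.38% lower and 7.54% higher over all genes. The median change was -1.27. The 24 genes all had DIV4 libraries wholly below the DIV2 libraries, against 23.4% of all genes. The summed level of the list was 508 to 873 at DIV2 and 199 to 244 at DIV4. Without clone 3F 11 of the genes were called lower, and without D6 or 7F none, with list medians of -1.35, -1.08 and -1.29.

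Hmgcs1, which makes the HMG-CoA that enters the pathway, stood at 66.8, 117 and 80.0 at DIV2 and at 22.7, 21.9 and 20.9 at DIV4 in clones 3F, D6 and 7F. The 3 clones thus ended at nearly the same level from unequal starts, and the change was -1.92 (SE 0.17, limma adjusted p = 0.00557). Insig1, a sterol sensor of the endoplasmic reticulum, fell from 56.8, 89.2 and 60.2 to 13.2, 15.8 and 15.4 (change -2.12, limma adjusted p = 0.00557). The isomerase Idi1 and the synthase Fdps fell by 2.13 and 2.14 on the log2 scale, but they share 18.8% and 27.9% of their 31-base words with other genes and are uncertain. Srebf2, the gene of the transcription factor that drives the pathway, fell by 0.71 on the log2 scale.

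In control clones the median change of the cholesterol list was -0.69, and 2 of its genes were called, Sc4mol and Nsdhl, both lower. Of all 10165 genes 126 were called lower in control clones. Clone by clone, the list's median change was -1.01, -1.49 and -1.21 in 3F, D6 and 7F and -0.32, -1.02 and -0.67 in D7, D3 and E8. The ranges overlapped, and no gene of the list was called for a difference between genotypes. For Hmgcs1 the null change was lower by 1.37 (95% interval of the difference -1.94 to -0.80, limma adjusted p = 0.12).

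The fall was not shared by all membrane lipid genes. Of 17 tested genes of galactolipid and sphingolipid synthesis 1 rose and 3 fell (median -0.12), against 7.54% higher and 9.38% lower over all genes. Cers5, a ceramide synthase, fell by 0.63 on the log2 scale, Sgms2, a sphingomyelin synthase, by 0.79, and the glucosylceramide synthase Ugcg by 0.43, while the synthase Sgms1 rose by a change of 0.68. Ugt8a, which makes galactocerebroside, went from 221, 190 and 205 to 96.1, 104 and 99.3. It was not called although its libraries did not overlap (change -1.03, limma adjusted p = 0.0636).

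The promoter of Hmgcs1 is shown because it was the promoter of the list that held the letters of a sterol response element. The sequence is from RefSeq on GRCm38.p6, chr13:119690174-119690262, plus strand, 5′ to 3′, with the match in capitals.
Hmgcs1: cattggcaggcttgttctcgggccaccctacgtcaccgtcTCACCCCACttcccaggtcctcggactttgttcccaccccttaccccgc
The letters searched were TCACNCCAC on both strands, in windows from 250 bases before to 50 bases after each start site. They were found in 1 of 20 windows of the cholesterol list (17 genes with a window) and in 1.24% of all 32851 windows. A match is a run of letters, not a measured site.

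The integrated stress response is the programme in which ATF4 switches on genes of amino acid supply after translation is slowed. Of 13 tested genes of that branch 12 rose and none fell, against 7.54% higher and 9.38% lower over all genes. The median change was 1.63. The branch and the chaperone branch below were separated after their values were seen, from a list of 23 genes in which 13 rose and 2 fell (median 1.25). Without clone 3F 3 of the 23 were called higher, and without D6 or 7F none, with list medians of 1.27, 1.23 and 1.24.

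Atf4 itself stood at 49.2, 41.9 and 39.3 at DIV2 and at 109, 115 and 109.8 at DIV4 in clones 3F, D6 and 7F (change 1.34, SE 0.20, limma adjusted p = 0.0112). Ddit3, the factor CHOP, rose from 9.47, 9.38 and 8.2 to 23.3, 34.4 and 25.9 (change 1.51, limma adjusted p = 0.00713). Chac1, which degrades glutathione (GRCm38 chromosome 2, bases 119351229 to 119354381, plus strand), rose from 1.67, 1.06 and 1.44 to 46.0, 55.1 and 46.9. Its change was 4.4 (SE 0.71, limma adjusted p = 0.0139), the mean at DIV4 being 35.5 times that at DIV2. Trib3, a pseudokinase that restrains ATF4, rose from 0.401, 0.598 and 0.375 to 22.6, 31.7 and 22.7 (change 4.18, limma adjusted p = 0.00713). In each of these genes the 3 null clones were close to each other at both days.

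Genes of serine and asparagine synthesis rose with them. Asns, asparagine synthetase, went from 29.1, 27.5 and 29.9 to 118, 136 and 132 (change 2.12, limma adjusted p = 0.0331). Psat1 and Shmt2 of the serine and glycine pathway had changes of 0.84 and 1.96. Phgdh, the first enzyme of serine synthesis, had one of 2.44 but shares 55.9% of its 31-base words with other genes. Sesn2, a sestrin that senses leucine, rose from 2.97, 2.65 and 2.89 to 17.7, 19.7 and 18.7 (change 2.36, limma adjusted p = 0.0103). Slc7a11, the cystine transporter, was the member not called, at 3.80, 6.25 and 4.07 at DIV2 and 3.69, 4.4 and 3.93 at DIV4 (change -0.17, 95% interval -0.80 to 0.47).

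Genes of endoplasmic reticulum chaperones and the unfolded protein response, the chaperone branch, did not rise as a group. Of 10 tested genes 1 rose, 2 fell and 7 were not called (median -0.44), against 7.54% higher and 9.38% lower over all genes. Herpud1, a component of protein disposal at that membrane, rose from 18.7, 7.75 and 13.7 to 43.2, 29.6 and 38.7 (change 1.47, limma adjusted p = 0.00779). Manf and Calr, a secreted and a calcium-binding chaperone, fell by 0.92 and 0.82 on the log2 scale. Hspa5, the chaperone BiP, stood at 63.3, 78.0 and 74.2 at DIV2 and at 59.2, 49.9 and 52.9 at DIV4 (change -0.40, 95% interval -0.99 to 0.19).

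Cytosolic aminoacyl-tRNA synthetases, a set chosen after its values were seen, held 13 rises and 1 fall among 20 tested genes (median 0.85). Over all genes 7.54% were called higher and 9.38% lower. Gars, for glycine, rose from 31.4, 31.5 and 34.3 to 81.6, 87.6 and 87.1 (change 1.37, limma adjusted p = 0.0208), and Sars, for serine, from 50.2, 52.1 and 52.7 to 96.4, 110.7 and 102.6. Qars, for glutamine, fell by 0.61 on the log2 scale. None of 16 tested mitochondrial synthetases was called, and their median change was 0.11.

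**Figure D3:**
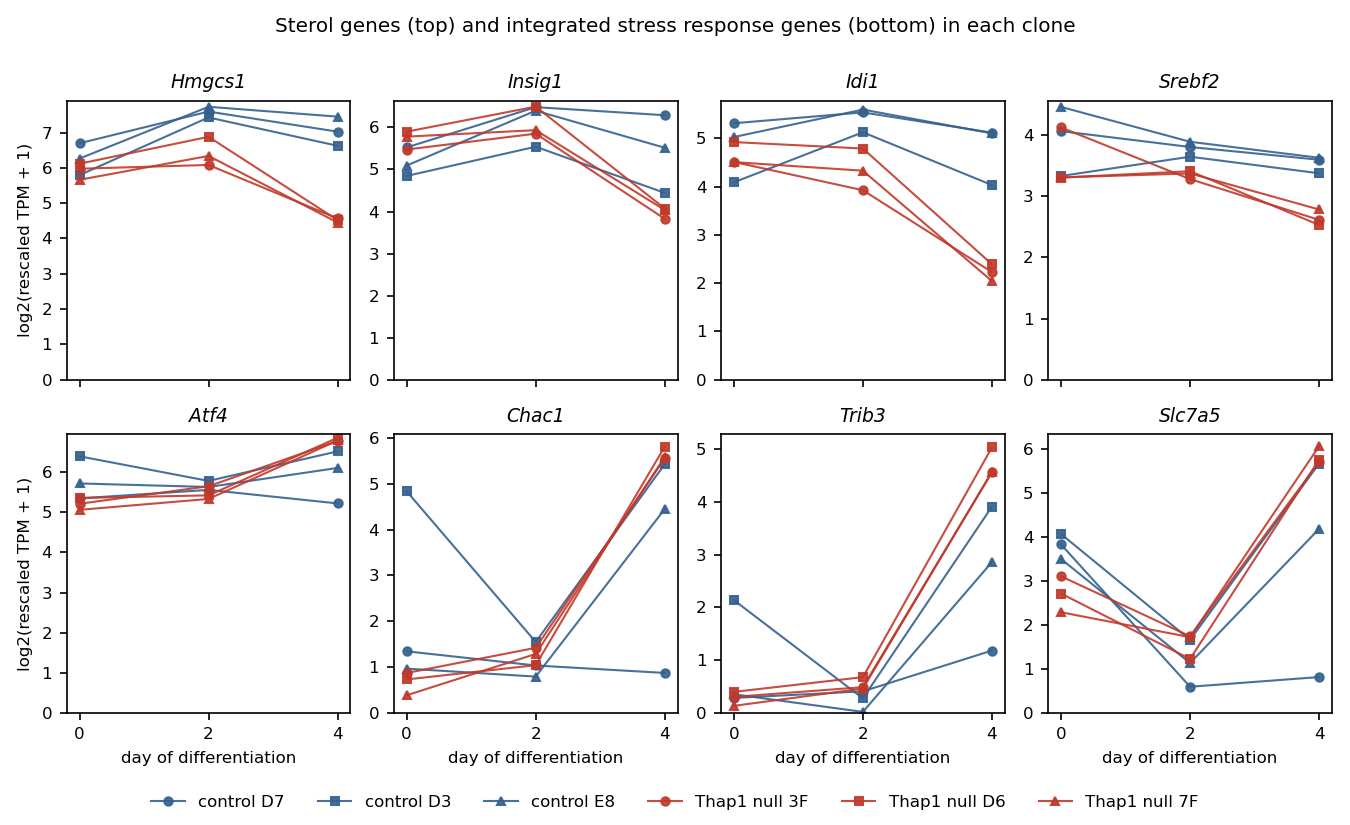
Levels, as log2(rescaled TPM + 1), of 4 sterol genes (top) and 4 integrated stress response genes (bottom) in each control and Thap1 null clone at day 0, 2 and 4, 1 line per clone. The null clones run close together, down in the top panels and up in the bottom panels after day 2, while control D7 stays low for Chac1, Trib3 and Slc7a5 at day 4.

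Stress genes in control clones split by clone. Chac1 stood at 1.05, 1.92 and 0.730 at DIV2 and at 0.828, 42.0 and 20.8 at DIV4 in D7, D3 and E8, so it was high in 2 control clones and at its DIV2 level in D7. The list's median change in these clones was -0.06, 1.08 and 0.79, against 1.09, 1.29 and 1.26 in 3F, D6 and 7F, so D3 lay next to 3F and D7 far below. In control clones 3 genes of the list were called, Ddit3, Trib3 and Atf3, all higher, against 164 higher of all 10165 genes. No gene was called for a difference between genotypes, and for Chac1 the difference was 1.94 (95% interval -0.41 to 4.30).

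Promoters of 4 stress genes are shown because they hold the letters of the C/EBP-ATF response element, the sequence that ATF4 dimers are known to bind. The sequences are from RefSeq on GRCm38.p6, 5′ to 3′ on the strand of the gene, with the match, on either strand, in capitals: chr2:119351009-119351096 plus for Chac1, chr6:7693210-7693272 minus for Asns, chr1:191183396-191183483 minus for Atf3 and chr3:50443614-50443719 minus for Slc7a11.
Chac1: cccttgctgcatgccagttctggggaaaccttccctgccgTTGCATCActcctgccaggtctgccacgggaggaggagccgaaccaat
Asns: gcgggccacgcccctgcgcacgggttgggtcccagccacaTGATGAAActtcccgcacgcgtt
Atf3: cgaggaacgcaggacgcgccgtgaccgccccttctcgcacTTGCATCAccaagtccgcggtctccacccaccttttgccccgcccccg
Slc7a11: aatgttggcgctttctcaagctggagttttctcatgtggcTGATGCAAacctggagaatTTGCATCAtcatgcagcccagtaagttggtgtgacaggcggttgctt
The letters searched were TGATGNAA on both strands in the same windows, and no window of the branch held the sterol letters. They were found in 5 of 15 windows of the stress response branch (33.3%), the fifth being Trib3. Over all genes called higher by at least 1 log2 unit, 23 of 241 windows held them (9.54%), against 2 of 77 windows of genes called lower by as much (2.60%), 2.05% of windows of tested genes and 3.97% of all windows. The matching windows of Chac1, Trib3, Asns and Atf3 are part of both the branch and the genes called higher. Slc7a11 holds a pair of matches and was not called. Atf4, Ddit3, Atf5, Sesn2, Psat1, Phgdh, Shmt2 and Ppp1r15a rose with no such letters in their windows.

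The 15 largest rises, among called genes with a mean of at least 5 at 1 of the days and the same direction in all clones, were led by Gfap. It encodes the intermediate filament of astrocytes (GRCm38 chromosome 11, bases 102887336 to 102900912, minus strand) and rose from 1.98, 6.34 and 3.18 to 81.1, 78.4 and 135. The days did not overlap and the change was 4.42 (SE 0.59, limma adjusted p = 0.00888). In control clones Gfap stood at 0.0129, 18.7 and 18.7 at DIV2 and at 0.179, 100.7 and 234 at DIV4 in D7, D3 and E8.

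Of 12 listed astrocyte markers 6 were tested (median change 1.27). DIV4 libraries lay wholly above the DIV2 libraries for 5, against 19.5% of all genes, and 2 rose, against 7.54%. The 2 were Gfap and the glutamate transporter Slc1a3, which went from 0.885, 1.74 and 0.663 to 3.11, 7.81 and 4.93 (change 1.55, limma adjusted p = 0.0209). The glutamate transporter Slc1a2 and the lipid receptor S1pr1 had changes of 1.63 and 0.99 and were not called (limma adjusted p = 0.0552 and 0.0791). Aldh1l1, a folate enzyme used to define astrocytes, went from 4.03, 1.96 and 2.37 to 1.14, 2.06 and 0.864 and was not called (change -0.68). Aqp4, the water channel of astrocyte endfeet, reached at most 0.198 in the 6 null libraries, and the connexin Gja1 at most 0.0339. Gjb6 was listed at 0 in all of them. The summed level of the list was 7.23 to 12.3 at DIV2 and 91.5 to 148 at DIV4, nearly all of it Gfap at DIV4. The part of other cells in these results was not tested.

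Slc7a5, the large neutral amino acid transporter, rose from 2.35, 1.34 and 2.3 to 51.6, 53.5 and 66.4 (change 4.29, limma adjusted p = 0.0107). Slc7a1, for cationic amino acids, and Slc1a4, for neutral ones, had changes of 2.74 and 2.52. Eif4ebp1, a repressor of translation start, rose from 2.94, 1.77 and 2.55 to 46.1, 53.8 and 54.8 (change 3.95, limma adjusted p = 0.0215). Pck2, the mitochondrial PEP carboxykinase, and Mthfd2, a mitochondrial folate enzyme, had changes of 3.53 and 2.96. Nupr1, a small stress-induced chromatin protein, rose from 0.265, 0.0893 and 0.172 to 18.3, 15.3 and 18.6 (change 3.97, SE 0.30, limma adjusted p = 0.00557). For Nupr1 the control clones D7, D3 and E8 reached 0.0401, 2.75 and 1.31 at DIV4, below all null clones, with a difference of changes of 2.94 that was not called (limma adjusted p = 0.10).

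Others among the largest rises were secreted or extracellular proteins. Vegfa, the endothelial growth factor, rose from 1.18, 1.12 and 1.01 to 8.37, 14.8 and 12.8 (change 2.59, limma adjusted p = 0.00557). Apoe, a lipid carrier, rose from 2.31, 1.52 and 1.60 to 9.24, 14.2 and 27.9 (change 2.56, limma adjusted p = 0.0209). Sparcl1 and Fbln5, both matrix proteins, had changes of 2.70 and 2.57.

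**Figure D4:**
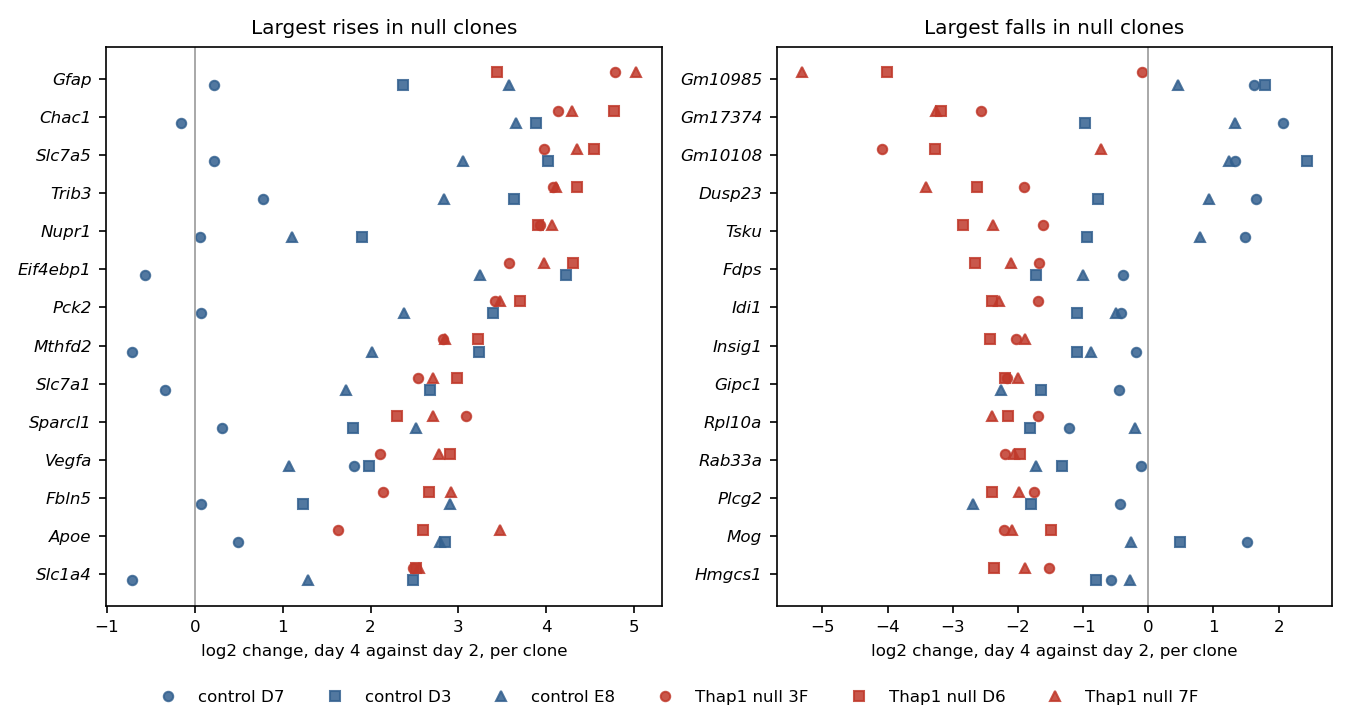
Log2 change from day 2 to day 4 in each clone for genes named in the text among the largest rises (left) and largest falls (right) in the Thap1 null clones, with the 3 null and 3 control clones as separate points. For Slc7a5 and Eif4ebp1 the control clones D3 and E8 lie near the null clones and D7 near 0.

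The 15 largest falls included sterol genes already described, Fdps, Idi1, Insig1 and Hmgcs1, and Mog. Dusp23, a phosphatase, fell from 8.89, 26.6 and 24.6 to 1.62, 3.45 and 1.41 (change -2.65, SE 0.45, limma adjusted p = 0.0154). Tsku, a secreted leucine-rich protein, fell from 9.46, 29.7 and 18.8 to 2.43, 3.28 and 2.79 (change -2.28, limma adjusted p = 0.0192). Gipc1, a trafficking adaptor, fell from 221, 113 and 156 to 48.7, 24.0 and 38.4 (change -2.12, limma adjusted p = 0.00983). Rab33a, a small GTPase of vesicle traffic, fell from 72.2, 77.1 and 68.1 to 14.9, 18.9 and 15.6, and Plcg2, a phospholipase, from 7.43, 12.3 and 6.30 to 1.51, 1.52 and 0.856. Gm10985, Gm17374, Gm10108 and Rpl10a were also among the 15, and they share 51.0%, 29.2%, 96.5% and 22.9% of their 31-base words with other genes, so they are uncertain.

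Some extracellular matrix and surface genes rose (7.54% of all genes were called higher). Of 9 tested collagens and laminins 5 rose and none fell (median 1.05), among them Col9a3, from 19.6, 16.4 and 14.4 to 46.1, 75.2 and 34.2 (change 1.51, limma adjusted p = 0.0101), and Col18a1, from 3.20, 1.08 and 1.75 to 15.8, 7.26 and 9.74 (change 1.99, limma adjusted p = 0.000695). Col18a1 passed the threshold with any 1 clone left out, and it was too low to be tested at a mean of at least 5. Of 8 tested genes of chondroitin sulfate proteoglycans and their linkers 4 rose and none fell. Ncan, the proteoglycan neurocan, rose from 13.3, 14 and 13.5 to 57.6, 36.1 and 48.6 (change 1.71, limma adjusted p = 0.0126), with the hyaluronan synthase Has2 (change 1.53), the linkage enzyme Xylt1 (1.22) and the chain-building enzyme Chpf (0.69). Of 10 tested genes of axon contact 4 rose, the adhesion molecules Ncam1 and Nrcam, the receptor Lrp1 and the scaffold Ank2, and none fell.

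Growth factor receptors and immediate early genes rose in part (7.54% of all genes were called higher). Of 13 tested receptors 6 rose and none fell. Erbb3, a neuregulin receptor, went from 5.23, 3.52 and 3.70 to 16.1, 24.5 and 18.9 (change 2.01, limma adjusted p = 0.0125), and Fgfr3, a fibroblast growth factor receptor, from 1.87, 2.69 and 2.32 to 8.10, 11 and 7.71 (change 1.59, limma adjusted p = 0.00557). Fgfr1, the kinase Axl and the neurotrophin receptors Ntrk2 and Ntrk3 were the others. Of 11 tested immediate early genes 7 rose and none fell, and 10 had DIV4 libraries wholly above the DIV2 libraries, against 19.5% of all genes. Fos, an AP-1 subunit, rose from 39.7, 21.6 and 31.7 to 75.3, 49.96 and 64.5 (change 1.03, limma adjusted p = 0.0164). Its AP-1 partner Junb and the early response gene Ier2 had changes of 1.21 and 1.18. Of 9 tested genes of thyroid hormone response 3 rose, among them the retinoid X receptors Rxra and Rxrg. Rxrg went from 0.462, 0.237 and 0.581 to 3.29, 3.66 and 4.13 (change 1.72, limma adjusted p = 0.00557), while the hormone receptor Thra was not called (change -0.56, limma adjusted p = 0.137).

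Cell division genes were low and not called. None of 14 tested genes of mitosis and none of 16 tested genes of S phase was called in the null clones, with medians of -0.40 and -0.22. Top2a, a topoisomerase of dividing cells, stood at 4.56, 12.7 and 7.85 at DIV2 and at 2.80, 6.20 and 7.08 at DIV4, against 141 to 151 in null OPCs. In control clones 7 of the 14 mitosis genes were called higher, against 164 of all 10165 genes, with a median change of 1.04. Clone by clone the mitosis median was -0.29, -0.92 and -0.04 in 3F, D6 and 7F and 0.99, 0.58 and 1.57 in D7, D3 and E8, so the genotypes did not overlap, but no mitosis gene was called for a difference (Top2a, difference -1.83, 95% interval -2.61 to -1.04, limma adjusted p = 0.128). Such a gap was not limited to mitosis. Clone medians also did not overlap for S phase, p53 targets, collagens and laminins, Schwann cell markers, the stress list and the 1 tested microglia marker. Of 10 tested inhibitors of cyclin-dependent kinases and D cyclins 3 rose, Cdkn1a, Cdkn1b and Ccnd3, and 1 fell, Cdkn2d (change -0.87). The shares over all genes were 7.54% higher and 9.38% lower.

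**Figure D5:**
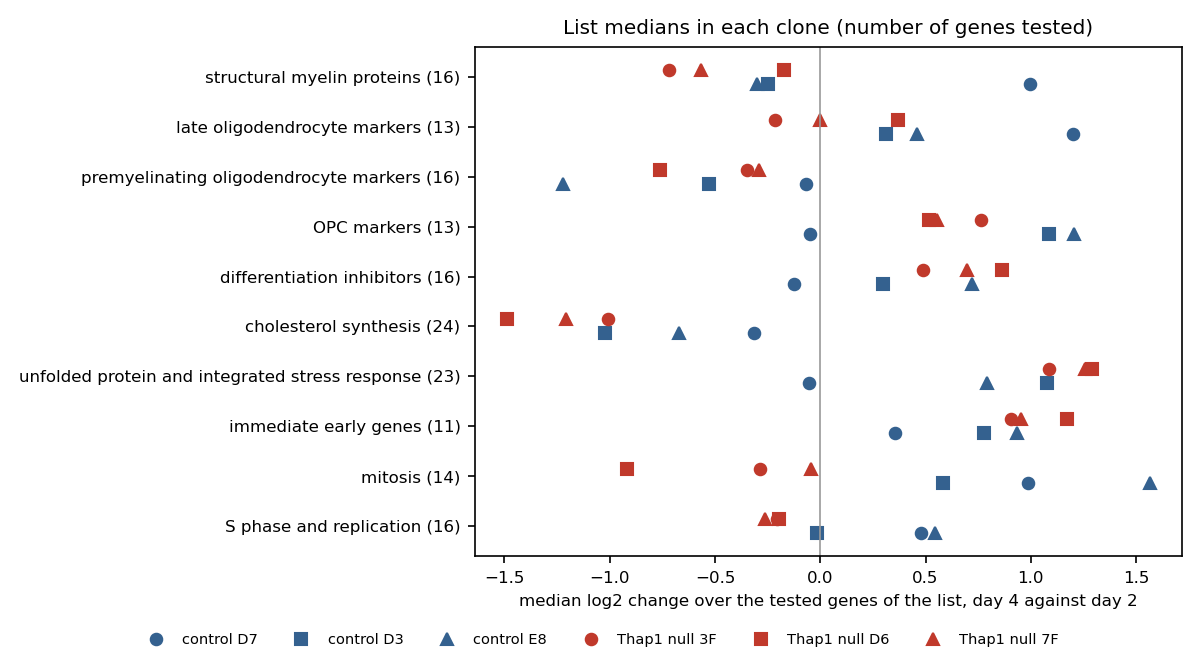
Median log2 change from day 2 to day 4 over the tested genes of 10 lists, 1 point per clone, for the 3 Thap1 null and 3 control clones. The null and control points do not overlap for mitosis, for S phase and, narrowly, for stress genes (lowest null 1.09, highest control 1.08). The control clone D7 lies apart from D3 and E8 for myelin and stress genes.

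In other lists at most 4 genes were called in 1 direction, and over all genes 7.54% were called higher and 9.38% lower. Of 14 tested p53 targets 3 fell, the cyclin Ccng1, the death effector Bax and the stress protein Trp53inp1 (change -0.83, limma adjusted p = 0.00832), and none was called higher. Their median change was 0.04, with 9 point estimates above 0 and 5 below. Cdkn1a, which rose, was counted with the kinase inhibitors above and not in this list. Bax shares 11.1% of its 31-base words with other genes. Of 10 tested iron genes 3 fell, the transferrin receptor Tfrc (change -0.68), the exporter Slc40a1 (-1.03) and the ferritin light chain Ftl1 (-0.79), although Ftl1 shares 57.7% of its 31-base words with other genes. Of 13 tested lysosomal enzymes that degrade glycosaminoglycans, the group of Gusb, 1 rose, the sulfamidase Sgsh (change 0.55), and 1 fell, the hyaluronidase Hyal2 (-0.51). Of 22 other lysosomal genes 1 rose, the protease Ctsz, and 1 fell, the proton pump subunit Atp6v1h. Of 20 genes of cell processes and cytoskeleton 1 rose, the microtubule protein Map4, and 2 fell, the actin regulators Cfl2 and Arpc3. Of 19 genes of glycolysis and hypoxia 3 rose, Aldoc, Slc16a1 and Vegfa, and 4 fell, Gpi1, Pfkl, Pgam1 and Bnip3, of which Gpi1, Pgam1 and Bnip3 share 13.9%, 37.1% and 20.3% of their 31-base words with other genes. Aldoc, an aldolase, rose from 37.1, 34.5 and 34.8 to 169.9, 89.7 and 135 (change 1.82, limma adjusted p = 0.0245).

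The test of the difference itself, null change minus control change, called 1 of 10165 genes (0.00984%), the histone gene Hist1h2ae, and 1617 genes had an unadjusted p under 0.05. The null libraries held Hist1h2ae at 4.10, 5.34 and 3.53 at DIV2 and at 1.09, 1.33 and 1.8 at DIV4 (change -1.14, limma adjusted p = 0.00859). The control libraries of D7, D3 and E8 held it at 1.85, 2.10 and 2.36 at DIV2 and at 6.44, 7.18 and 8.39 at DIV4 (change 1.42, limma adjusted p = 0.0229). Levels were thus lower at DIV4 in every null clone and higher in every control clone, with a difference of -2.56 (95% interval -3.06 to -2.07, limma adjusted p = 0.0488). It encodes a replication-dependent histone H2A and shares 47.9% of its 31-base words with other genes, so the gene itself is uncertain. Hist1h2ab, Hist1h2bb and Hist1h3g, named after their values were seen, had differences of -2.64, -2.86 and -2.70, none of them called (limma adjusted p = 0.0789 for each). Eps8, an actin regulator, fell from 99.4, 45.3 and 66.5 to 41.3, 23.6 and 24.2 in the null clones, with a difference of -1.61 that was not called (limma adjusted p = 0.0592). The call of a difference rested on the processing. No gene was called with a pseudocount of 0.1, without the filter, with equal protein-coding totals, with all biotypes, with all 18 libraries or without the variance trend. The same held with 3F, D6, D7, D3 or E8 left out. At a mean of at least 5, or among genes that share under 10% of their 31-base words, no gene was called either. Hist1h2ae was itself not tested in those settings, so they cannot weigh its call. Nothing above is shown to be particular to the null clones.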

How the data were processed

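RNA was sequenced from 18 libraries of mouse OPC clones, with total RNA, a stranded kit and ribosomal RNA removal per the labels' protocols. The authors deposited TPM (length-corrected transcript abundance) for 93666 transcripts, and each library sums to 1000000 TPM in the deposited table. STAR, Picard and the build mm10 are named per the submitters' processing notes, while the quantifier and annotation are not given in the sources used here. TPM keeps no depth, so depth is unknown and no counting interval is given. No per-sample column was left unused.

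TPM of 47103 protein-coding transcript rows was summed over 22305 gene symbols, 25 of them restored from dates that spreadsheet software had made of them. Each library was rescaled by the median of ratios over 12320 genes above 0 in all 18 libraries. Of the transcript identifiers 96.6% were found in GENCODE M21 (GRCm38), which gave coordinates and the share of a gene's 31-base words found in other genes. At 10% or more a gene is called uncertain, since its reads could be split between copies, and this held for 303 of the null calls.

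limma 3.58.1 (R 4.3.3) was fitted to log2(rescaled TPM + 1) of the 12 DIV2 and DIV4 libraries, with the clone as a block, a trended moderated variance and 4 residual degrees of freedom, on 10165 genes with a mean of at least 1. The test was tried on simulated data first. P-values were adjusted by Benjamini-Hochberg over all genes, with a threshold of 0.05. The block rests on libraries of the same clonal line. DIV2 and DIV4 libraries of 1 clone deviated together from their group means, with r of 0.345, 0.482 and 0.231 in 3F, D6 and 7F and of 0.655, 0.597 and 0.334 in D7, D3 and E8. Python 3.11.15, numpy 2.4.6, pandas 2.3.3 and matplotlib 3.10.9 were used for sums and figures.

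The members and lists were chosen with earlier results of these data known, so a list's direction is no independent support. Named genes were Thap1 and Gusb, the structural myelin proteins, called or most abundant members of the other lists, the 15 largest rises and falls in null clones among called genes with a mean of at least 5 and 1 direction in all clones, and the called differences between genotypes. The stress response branches and the synthetases, and genes said to be so, were chosen after their values were seen. The symbols Zfp191, Sc4mol and Epb4.1l3 stand for listed genes with newer names, and Lhfpl3 was not matched. Lists without a count in the text are those for interferon and antigen presentation (5 tested, none called), neurons (2 tested, none called) and Schwann cells (3 tested, none called). Alternatives varied the pseudocount, the filter, the scaling, the transcript classes, the libraries in the fit, the block, the threshold and the clones left out. Some genes that the rule names are not reported here. Promoter sequences are from RefSeq on GRCm38.p6.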

Additional observations from a re-analysis of the deposited data

Results flagged for a closer look

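Hist1h2ae, a replication-dependent histone H2A gene, was the 1 gene whose change from DIV2 to DIV4 differed between genotypes by the test of the difference. The null change minus the control change was -2.56 on the log2 scale (95% interval -3.06 to -2.07, limma adjusted p = 0.0488), with a lower level at DIV4 in 3 of 3 null clones and a higher level in 3 of 3 control clones. The gene shares 47.9% of its 31-base words with other genes. The call was lost, with 0 genes called for a difference, with all 18 libraries in the fit, all biotypes or equal protein-coding totals. It was also lost with no variance trend, no filter, a pseudocount of 0.1, and with 3F, D6, D7, D3 or E8 left out. At a mean of at least 5, and among only genes that share under 10% of such words, 0 genes were called. Hist1h2ae was itself not tested there, so these settings cannot weigh its call.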

How the results depend on the processing

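Counts of calls moved more than directions. Against 1719 calls in null clones, 290 in control clones, 1 for the difference and 3 myelin genes lower, the values were 824, 0, 0 and 1 with no filter on low values, 544, 553, 65 and 3 with deposited TPM, and 658, 71, 0 and 1 with all 18 libraries in the fit. A fit of the 6 libraries of a genotype alone gave 3490 null calls with 8 myelin genes lower, and 0 control calls. Scaling factors from the 6 null libraries, with the fit also limited to those libraries, gave 3432 null calls with 9 myelin genes lower. The scaling was thus not varied apart from the fit there. Without the replicate block there were 535 null calls, 42 control calls and 0 myelin genes lower. A random replicate block for clones gave 2083, 741 and 2, and 23 for the difference. Requiring a log2 change of at least 1 left 322, 121 and 1 myelin gene. All biotypes gave 60 control calls. Scaling each library to equal protein-coding totals gave 2372 null calls and 1 myelin gene lower, and quantile normalization 1309 and 1. The difference was called for 6 genes with a pseudocount of 5, for 2 with quantile normalization, and for 0 with a pseudocount of 0.1, a mean of at least 5, equal protein-coding totals, all biotypes, no variance trend, or only genes that share under 10% of their 31-base words, the last chosen after seeing the data. The cause was not tested. With each clone left out in turn, null calls ranged from 2 to 2896, control calls from 2 to 1681, the difference from 0 to 1, myelin genes lower from 0 to 7, cholesterol genes lower from 0 to 24 and stress genes higher from 0 to 13, and leaving out a null clone also leaves fewer samples. Of the 1719 null calls, 535 were also called without the block, 456 with deposited TPM and 1129 with equal protein-coding totals. The sign turned for 13 under quantile normalization and for 3 with all biotypes. The 116 called genes named in the text kept their direction under every alternative in which they were tested (89 of them at a mean of at least 5). The sign turned for some of the 32 named genes that were not called. Cldn11 was at 0.045 with deposited TPM, 0.21 with equal protein-coding totals and 0.37 with quantile normalization. With equal protein-coding totals Gusb was at 0.035, Myrf at 0.076, Slc7a11 at 0.028 and Tnr at 0.023, and Tnr was at 0.010 with quantile normalization. With clones left out in turn, Cldn11 ranged from -0.15 to 0.087, Gjb1 from -0.82 to 0.18, Mal from -0.17 to 0.51, Mobp from -0.024 to 0.38, P2ry12 from -0.0023 to 0.75, Sox10 from -0.0092 to 0.070, Gusb from -0.080 to 0.053 and Thap1 from -0.20 to 0.10. TPM keeps no depth, so a change in genes near the filter cannot be weighed by counts.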
